A study of Mus musculus with 20 samples.

Results

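Interferon-stimulated genes are the genes that cells switch on when an interferon binds its receptor, and 33 of them were followed here in mouse liver, of 18193 genes named by the array's probe table. The members were fixed by name, with earlier results of these data known, and read from the brightest single-gene probe set of each gene. Their shares beside those of all genes are therefore descriptions and not an independent test. Of the 33 genes, 27 are usually led by type I interferon and 6 by interferon-gamma. Of these, 24 type I targets and all 6 interferon-gamma targets were measured. Isg15 is named only by a probe set that names several genes, and Oas1g and Ifi44 by no single-gene probe set, so these 3 were not analysed here. Levels are given as normalized intensity units, which compare 1 probe set between livers and not different genes with each other. Each of the 30 measured members was above the intensity floor of 16 on at least some arrays; Mx1, at the floor on 13 arrays, owes that mostly to the knockout livers on the diet.

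RNA came from 20 livers, 1 array per liver and 5 livers per group. The groups were Scd1-/- mice on the very low fat diet (Harlan Teklad TD03045; KO VLF), Scd1+/+ mice on that diet (WT VLF), Scd1-/- mice on chow (KO chow) and Scd1+/+ mice on chow (WT chow). Scd1 encodes the liver desaturase that makes monounsaturated fatty acids. The submitters set out to find expression changes peculiar to the knockout on the diet; the labels leave out strain, age, sex, length of feeding, whether mice were littermates and in which cells Scd1 was lost. Each array was made from the total RNA of a single flash-frozen liver, and the number of arrays limits the precision. Whole liver was extracted, so more cells of a type and more RNA per cell cannot be told apart in any value below.

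The labels were checked by Scd1, whose deposited intensity was 25.9 to 57.4 in the 10 knockout livers and 6522 to 20110 in the 10 wild-type livers. The ratio of the 3′ to the 5′ actin control, a sign of RNA integrity and labelling, had a median of 1.85 in KO VLF, 2.23 in WT VLF, 2.30 in KO chow and 2.61 in WT chow livers, and its part in the results was not tested. The liver label could not be checked against another tissue, since the series holds none. The 7 measured hepatocyte markers summed to 102200 to 107300 units in KO VLF livers and 105100 to 108600 in WT VLF livers. Their sums were 103400 to 108400 in KO chow livers and 101400 to 105300 in WT chow livers. The brightest markers weigh most in such sums.

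Type I interferons signal through IFNAR1 and IFNAR2, and the kinases JAK1 and TYK2 then phosphorylate STAT2. With IRF9 it acts in a complex that binds the interferon-stimulated response element (ISRE) in front of genes of antiviral defence. Interferon-gamma signals through its own receptor to the gamma-activated site (GAS) of its targets, with IRF1 as an early product and GTPases that attack intracellular pathogens among the later ones. In liver, hepatocytes and Kupffer cells both respond to interferon, and most members of either class respond to both kinds to some degree.

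Promoter sequence is shown for 6 members that between them cover both classes and each outcome on the diet, to show how the motifs that interferon signalling uses are placed in front of them. The sequences are the 200 bases before the RefSeq gene start (GRCm38.p6), written 5′ to 3′ along the gene's own strand, with the core of the ISRE (GAAANNGAAA or its reverse complement) in capitals in the Oas1a, Rsad2, Ifit3, Gbp2 and Igtp promoters and the GAS (TTCNNNGAA) in capitals in the Irf1 promoter. The GAS matches of Oas1a and Igtp are left in lower case. The 6 sequences lie at chr5:120907526-120907725, minus strand, for Oas1a, chr12:26456453-26456652, minus strand, for Rsad2, chr19:34583329-34583528, plus strand, for Ifit3, chr3:142620463-142620662, plus strand, for Gbp2, chr11:58199356-58199555, plus strand, for Igtp, and chr11:53769814-53770013, plus strand, for Irf1.
Oas1a: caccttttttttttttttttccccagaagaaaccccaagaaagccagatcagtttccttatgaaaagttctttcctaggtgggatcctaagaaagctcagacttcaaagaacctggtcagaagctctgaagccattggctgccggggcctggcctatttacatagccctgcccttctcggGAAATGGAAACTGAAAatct
Rsad2: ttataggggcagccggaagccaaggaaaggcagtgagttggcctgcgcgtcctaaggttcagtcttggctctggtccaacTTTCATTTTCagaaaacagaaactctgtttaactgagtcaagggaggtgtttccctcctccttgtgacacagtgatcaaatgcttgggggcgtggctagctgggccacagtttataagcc
Ifit3: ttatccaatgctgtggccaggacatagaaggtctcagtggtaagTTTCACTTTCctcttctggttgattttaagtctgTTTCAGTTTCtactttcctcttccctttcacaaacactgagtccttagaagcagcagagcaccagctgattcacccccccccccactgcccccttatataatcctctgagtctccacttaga
Gbp2: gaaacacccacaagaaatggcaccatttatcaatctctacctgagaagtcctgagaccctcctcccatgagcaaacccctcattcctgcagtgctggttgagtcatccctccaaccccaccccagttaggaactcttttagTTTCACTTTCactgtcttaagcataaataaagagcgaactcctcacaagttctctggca
Igtp: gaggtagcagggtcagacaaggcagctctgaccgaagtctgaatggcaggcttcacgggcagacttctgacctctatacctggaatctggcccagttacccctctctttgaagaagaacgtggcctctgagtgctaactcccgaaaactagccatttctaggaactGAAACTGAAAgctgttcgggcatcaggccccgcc
Irf1: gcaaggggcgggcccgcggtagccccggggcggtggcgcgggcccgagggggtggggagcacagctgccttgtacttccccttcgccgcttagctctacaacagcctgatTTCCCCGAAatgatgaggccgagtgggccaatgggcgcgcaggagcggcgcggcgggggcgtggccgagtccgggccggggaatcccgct

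RefSeq promoter windows (250 bases before to 50 after the start) were at hand for 26 of the 33 members. An ISRE core on either strand was present for 57.1% of the type I targets (12 of 21) and 80.0% of the interferon-gamma targets (4 of 5), against 3.99% of all 27025 genes with a window. A GAS was present for 28.6% (6 of 21) and 40.0% (2 of 5), against 9.55% of all genes. Set beside the arrays, an ISRE core was present for 3 of the 9 type I targets with a window that rose in KO VLF livers. It was also present for Stat2 among the 2 that fell and for 6 of the 7 that were not called. Usp18, Dhx58, Mx1 and Mx2 rose too but had no window, so the share among all rises is not known. Oas1a, whose overlapping ISRE cores end 5 and 11 bases before the start, rose in KO VLF livers. Rsad2, with a core 111 bases before the start, rose too, while Ifit3, with cores at 113 and 147 bases, missed the threshold. Irgm1 (cores at 15 and 21 bases) and Gbp3 (30 and 36 bases) were not called. Gbp2 and Igtp each carried a single ISRE core, 50 and 25 bases before the start, and were called in opposite directions. Both strands were searched, overlapping matches were counted, and a match describes letters only.

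On the VLF diet the knockout liver had higher levels of many type I targets, led by Rsad2, Oasl1 and Usp18, and mixed levels of the interferon-gamma targets. Of 24 measured type I targets 13 rose in KO VLF livers against WT VLF livers, or 54.2%, beside 21.6% of all 16188 measured genes, and 2 fell, or 8.33%, beside 25.8% of all genes (limma, Benjamini-Hochberg adjusted p under 0.05). The median log2 change was 0.58 for the type I targets and -0.06 for all measured genes. For 10 of the 24 every KO VLF liver lay above every WT VLF liver, which held for 16.4% of all genes, and for Stat2 every KO VLF liver lay below (17.4% of all genes). Of the 6 interferon-gamma targets Gbp2 rose, Irf1, Igtp and Iigp1 fell and Gbp3 and Irgm1 were not called, with a median log2 change of -0.30. The falls depended on how the arrays were put on a common scale. Under median scaling without quantile normalization, where all genes had a median of -0.02, there were 17 rises and 1 fall among the type I targets. The interferon-gamma targets had 1 rise and 3 falls there. With arrays centred on their spiked hybridization controls (the control scale) all genes had a median of 0.14, and there were 0 falls in either class. The control scale gave 17 rises among the type I targets and 1 among the interferon-gamma targets. Relative to the median of all genes, the type I targets stood at 0.65 under the quantile scale and 0.72 under the control scale, and the interferon-gamma targets at -0.23 and -0.12.

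**Figure D1:**
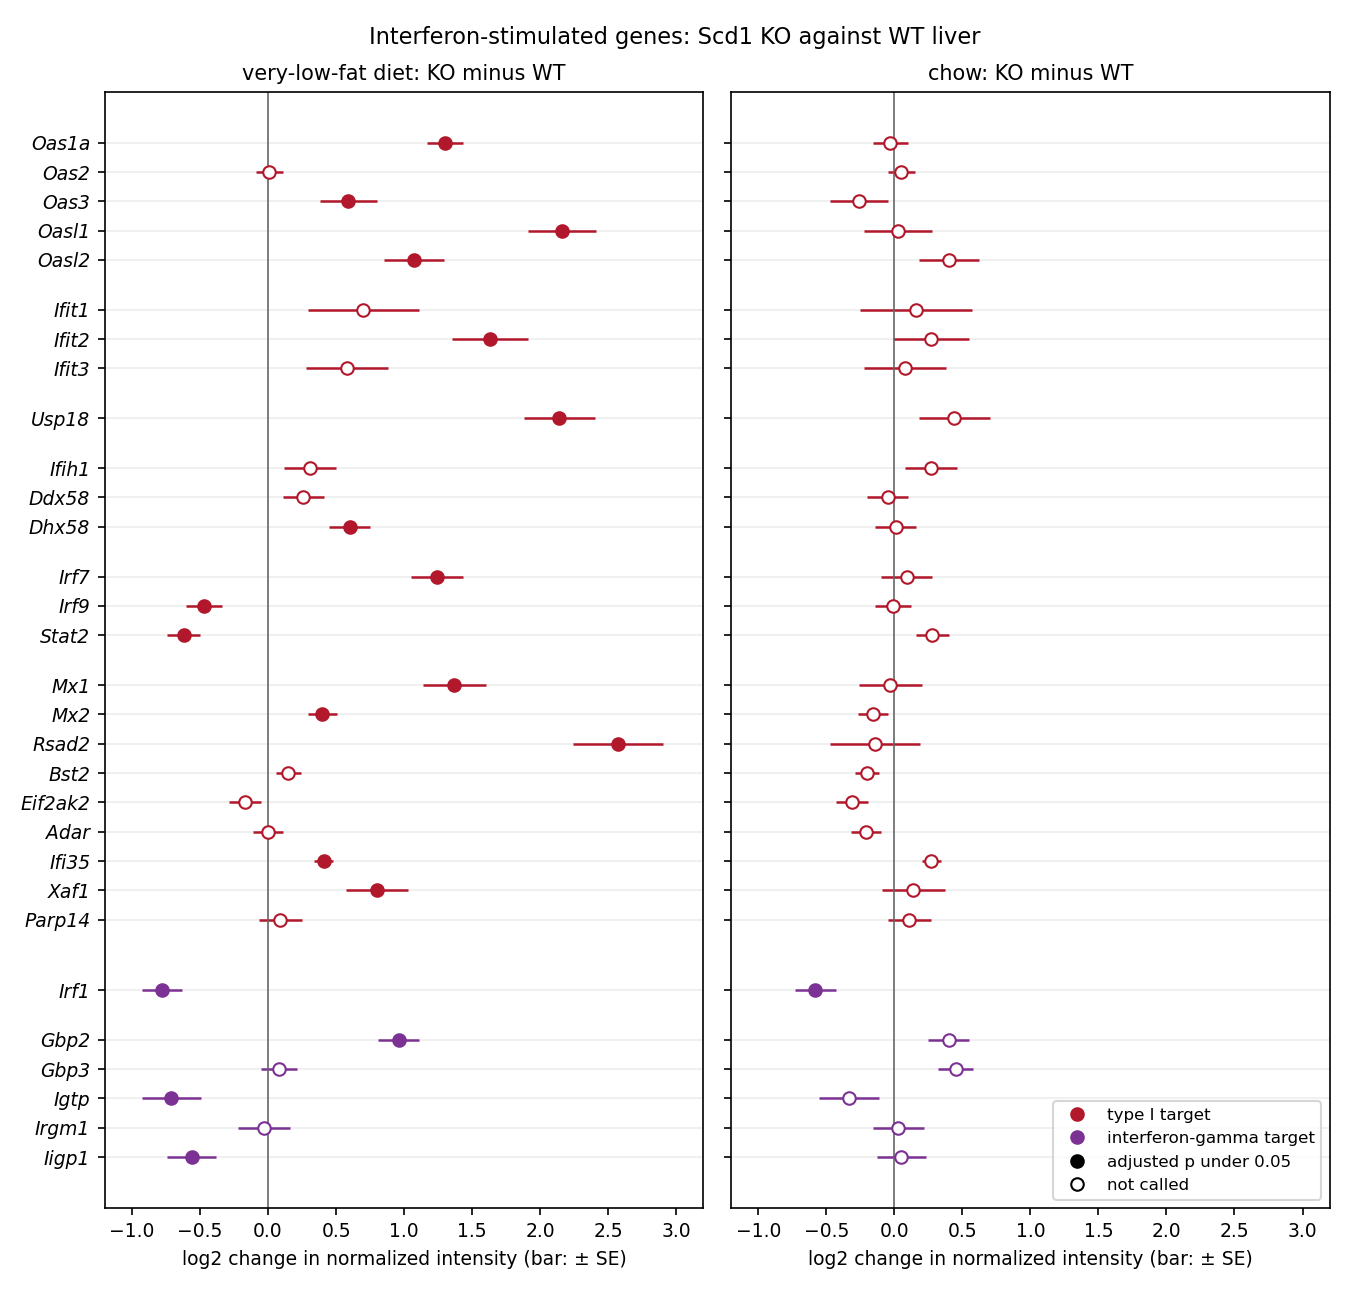
Log2 change in normalized intensity of the 30 measured members in knockout against wild-type livers on the very-low-fat diet (left) and on chow (right), by role, with the standard error of the fit; filled points have an adjusted p under 0.05. On the diet 14 members lie to the right and 5 to the left as filled points; on chow Irf1 alone is filled.

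The OAS family makes oligoadenylates that activate RNase L; Oasl1 lacks that activity and in mouse restrains translation of Irf7. Of 5 measured family members 4 rose in KO VLF livers. Oas1a had 421, 638, 450, 455 and 777 intensity units in KO VLF livers, against 220, 248, 225, 186 and 209 in WT VLF livers. The groups did not overlap, and Oas1a lay between 178 and 225 in KO chow livers and between 187 and 213 in WT chow livers. Oas1a was 2.46-fold higher in KO VLF livers than in WT VLF livers (log2 1.30 ± 0.13, estimate ± SE, limma adjusted p = 3.51e-07). Oasl1 had 330, 908, 510, 827 and 1026 units in KO VLF livers, against 147, 205, 148, 124 and 132 in WT VLF livers. Liver 1 was the lowest of the KO VLF group and still above every liver of the other groups, and Oasl1 was 4.47-fold higher than in WT VLF livers (log2 2.16 ± 0.25, limma adjusted p = 1.71e-06). Oasl2 rose by log2 1.07 ± 0.22 (limma adjusted p = 0.000649) and Oas3 by log2 0.59 ± 0.21 (adjusted p = 0.0381). The Oas3 call lay near the threshold. It was lost without KO VLF liver 2 (log2 0.38, limma adjusted p = 0.102) or KO VLF liver 5 (0.51, adjusted p = 0.0978), where the estimate shrank. It was also lost without any single WT VLF liver (adjusted p = 0.0507 to 0.0735), where the estimate stayed at 0.57 to 0.62. Oas2 was not called, at 76.9 to 117 units in KO VLF livers and 78.3 to 97.9 in WT VLF livers (log2 0.01 ± 0.10, limma adjusted p = 1).

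The IFIT proteins bind RNA that lacks the marks of host messenger RNA. Ifit2 had 50.4, 208, 57.9, 87.3 and 138 units in KO VLF livers, against 31.0, 35.3, 25.2, 33.2 and 28.4 in WT VLF livers. Every KO VLF liver lay above every WT VLF liver, with a 4.11-fold range inside the KO VLF group, and the difference was 3.09-fold (log2 1.63 ± 0.28, limma adjusted p = 0.000123). Ifit3 had 224, 877, 240, 373 and 571 units in KO VLF livers, against 272, 394, 289, 184 and 238 in WT VLF livers. Livers 1, 3 and 4 of the KO VLF group lay within the WT VLF range, and Ifit3 was not called (log2 0.58 ± 0.30, limma adjusted p = 0.167), though it was under median scaling (0.78, adjusted p = 0.0309) and on the control scale (0.97, adjusted p = 0.0333). Ifit1 was not called either (log2 0.70 ± 0.41, limma adjusted p = 0.226), at 91.9 units in KO VLF liver 1 and 606 in KO VLF liver 2, against 103 to 270 in WT VLF livers; without KO VLF liver 1 its change was 1.05 (adjusted p = 0.0383).

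Usp18 removes ISG15 from proteins and, at the receptor, dampens type I interferon signalling. It had 421, 1178, 629, 919 and 1238 units in KO VLF livers, against 172, 288, 196, 163 and 133 in WT VLF livers. The groups did not overlap, and Usp18 was 4.42-fold higher in KO VLF livers (log2 2.14 ± 0.26, limma adjusted p = 2.19e-06). On chow it lay between 163 and 251 units in KO livers and between 124 and 175 in WT livers.

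Of the 3 cytosolic RNA sensors 1 rose. Dhx58, which encodes LGP2, a regulator of the other sensors, had 109, 168, 107, 101 and 164 units in KO VLF livers, against 84.8, 101, 83.6, 73.3 and 77.2 in WT VLF livers. All KO VLF livers lay above the WT VLF livers, though livers 1, 3 and 4 by a small margin over WT VLF liver 2, and the rise was 1.52-fold (log2 0.60 ± 0.15, limma adjusted p = 0.00437). Another Dhx58 probe set was at log2 -0.06 ± 0.09 (adjusted p = 0.755). Ddx58, the gene of RIG-I, had 237, 385, 273, 319 and 328 units in KO VLF livers, against 222, 320, 257, 241 and 241 in WT VLF livers. The ranges of the Ddx58 groups overlapped and it was not called (log2 0.26 ± 0.15, limma adjusted p = 0.202), nor was Ifih1, the gene of MDA5 (0.31 ± 0.19, adjusted p = 0.243). Both were called under median scaling (Ddx58 0.47, adjusted p = 0.00512; Ifih1 0.51, adjusted p = 0.0307) and on the control scale (0.66 and 0.70, adjusted p = 0.0157 and 0.0218). The other Ddx58 probe sets were at -0.18 ± 0.11 and -0.02 ± 0.08 and not called.

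**Figure D2:**
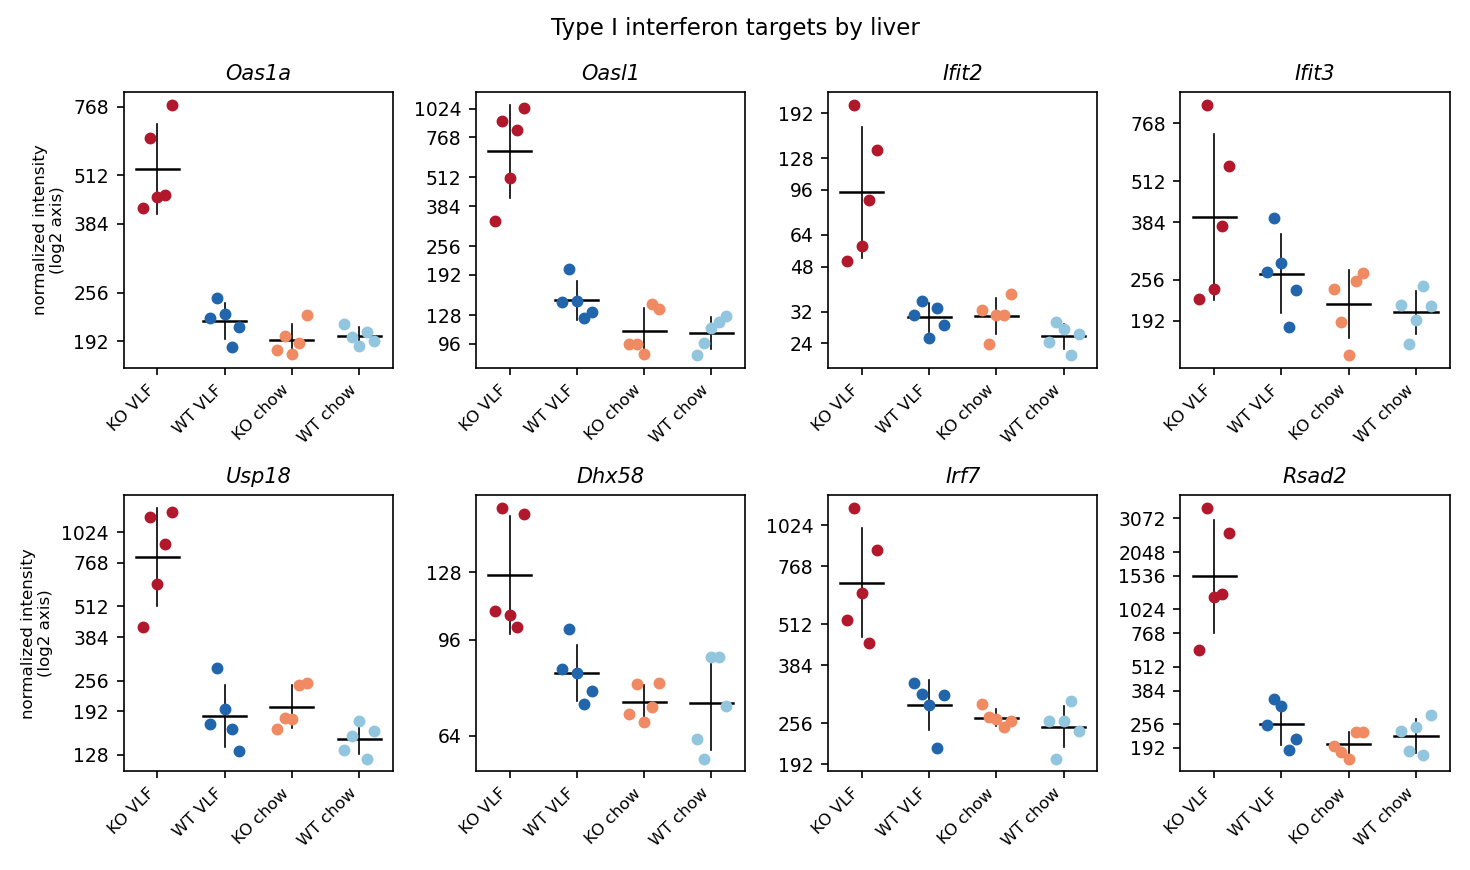
Normalized intensity (log2 axis) of 8 type I targets in each of the 20 livers; a point is a liver, the horizontal line the mean and the vertical line ± 1 SD of the log2 values (n = 5). KO VLF livers lie above the WT VLF livers without overlap in all panels but Ifit3, and are widely spread.

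Of the 3 transcription factors 1 rose and 2 fell. Irf7, the factor that amplifies interferon-alpha production, had 528, 1156, 638, 447 and 863 units in KO VLF livers, against 339, 314, 290, 215 and 311 in WT VLF livers. No KO VLF liver reached down to the WT VLF range, and Irf7 was 2.36-fold higher (log2 1.24 ± 0.19, limma adjusted p = 5.49e-05). Stat2 had 32.5, 46.1, 49.3, 59.0 and 54.2 units in KO VLF livers, against 67.0, 83.5, 73.9, 72.9 and 67.0 in WT VLF livers. Every KO VLF liver lay below every WT VLF liver, a 1.54-fold difference (log2 -0.62 ± 0.12, limma adjusted p = 0.000342), which shrank to -0.39 (adjusted p = 0.146) with arrays centred on the hybridization controls. On chow Stat2 ran the other way, at 57.5 to 72.1 units in KO livers and 49.4 to 55.1 in WT livers (log2 0.28 ± 0.12, limma adjusted p = 0.166), so that the WT VLF group held the highest mean of the 4. Its other probe set was at -0.45 ± 0.13 (limma adjusted p = 0.0137) on the diet and at -0.02 ± 0.13 (adjusted p = 1) on chow. Irf9, the partner of STAT2 on the ISRE, lay between 101 and 138 units in KO VLF livers and between 136 and 185 in WT VLF livers. Its change of log2 -0.47 ± 0.13 (limma adjusted p = 0.00786) was -0.11 (adjusted p = 0.876) under the control scale.

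Of the 9 other effectors 5 rose in KO VLF livers, and Rsad2 had the largest change of all 30 measured members. It encodes viperin, which makes a chain-terminating nucleotide, and had 627, 3486, 1195, 1231 and 2572 units in KO VLF livers, against 253, 345, 319, 187 and 215 in WT VLF livers. The lowest KO VLF liver was above the highest liver of each other group, and Rsad2 was 5.94-fold higher than in WT VLF livers (log2 2.57 ± 0.33, limma adjusted p = 5.87e-06). Its other probe sets gave 2.18 ± 0.29 and 3.05 ± 0.39. Mx1, a GTPase that blocks viral ribonucleoproteins, had 24.3, 86.1, 38.7, 26.6 and 56.7 units in KO VLF livers, against 16.1 in WT VLF liver 2 and the floor in the other 4 WT VLF livers. All KO chow livers and 4 of the WT chow livers were at the floor too, so the Mx1 rise of 2.58-fold (log2 1.37 ± 0.23, limma adjusted p = 0.00011) is a lower bound; with a floor of 32 it was 0.51 (adjusted p = 0.0501). Ifi35 (0.41 ± 0.07, limma adjusted p = 0.000265), Xaf1, a promoter of apoptosis (0.80 ± 0.23, adjusted p = 0.0102), and Mx2, an Mx1 relative (0.40 ± 0.11, adjusted p = 0.0102), also rose. The other Xaf1 probe set was not called (0.12 ± 0.06, limma adjusted p = 0.134). The Ifi35 rise rested on probe sets whose suffix marks a match to several transcripts, and the Ifi35 probe set without such a suffix was at 0.06 ± 0.08 (adjusted p = 0.741). The 4 others of this role were not called: Bst2, the tether that holds virions at the membrane, at 0.15 ± 0.09 (limma adjusted p = 0.262; 0.49 with adjusted p = 0.00382 on the control scale), Eif2ak2, the kinase PKR, at -0.17 ± 0.12 (adjusted p = 0.317), the RNA editor Adar at -0.00 ± 0.11 (adjusted p = 1) and the ADP-ribosyltransferase Parp14 at 0.09 ± 0.16 (adjusted p = 0.888). Other probe sets of Eif2ak2 (0.59 ± 0.21, adjusted p = 0.0366) and Adar (0.44 ± 0.16, adjusted p = 0.0386) were called up, so these genes were read differently by their probe sets.

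The interferon-gamma targets did not move as a block. Irf1, the class's transcription factor, had 214, 264, 206, 257 and 233 units in KO VLF livers, against 428, 476, 393, 277 and 462 in WT VLF livers. The groups did not overlap, though WT VLF liver 4 came close, and Irf1 was 1.71-fold lower in KO VLF livers (log2 -0.78 ± 0.15, limma adjusted p = 0.00054); with arrays centred on the hybridization controls it was at -0.39 (adjusted p = 0.114). Gbp2, a guanylate-binding GTPase, had 108, 203, 155, 131 and 147 units in KO VLF livers, against 65.2, 72.9, 86.8, 76.4 and 73.8 in WT VLF livers. All KO VLF livers lay above the WT VLF range, and Gbp2 was 1.95-fold higher (log2 0.96 ± 0.15, limma adjusted p = 4.42e-05). Its relative Gbp3 was not called (0.08 ± 0.13, adjusted p = 0.844).

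The immunity-related GTPases, which act on the vacuoles of intracellular pathogens, were lower or not called. Igtp had 248, 460, 273, 449 and 575 units in KO VLF livers, against 624, 804, 699, 482 and 563 in WT VLF livers. KO VLF liver 5 lay within the WT VLF range and livers 1 and 3 far below it. Igtp was 1.64-fold lower (log2 -0.71 ± 0.22, limma adjusted p = 0.0165), but was not called without KO VLF liver 1 (-0.56, adjusted p = 0.0538) or liver 3 (-0.60, adjusted p = 0.0536), or under the control scale (-0.34, adjusted p = 0.447). Iigp1 was 1.47-fold lower (log2 -0.56 ± 0.18, limma adjusted p = 0.0198), at 1782 to 3760 units in KO VLF livers and 3359 to 5227 in WT VLF livers. That call was lost without KO VLF liver 1 (-0.41, adjusted p = 0.0626), KO VLF liver 3 (-0.49, adjusted p = 0.0572) or WT VLF liver 2 (-0.45, adjusted p = 0.0615), and under the control scale (-0.31, adjusted p = 0.456). The other Iigp1 probe set was lower too (-0.75 ± 0.15, limma adjusted p = 0.000777). Irgm1 was at log2 -0.03 ± 0.19 (limma adjusted p = 1; 0.36, adjusted p = 0.405, under the control scale), with KO VLF livers at 241 to 530 units around WT VLF livers at 299 to 417.

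**Figure D3:**
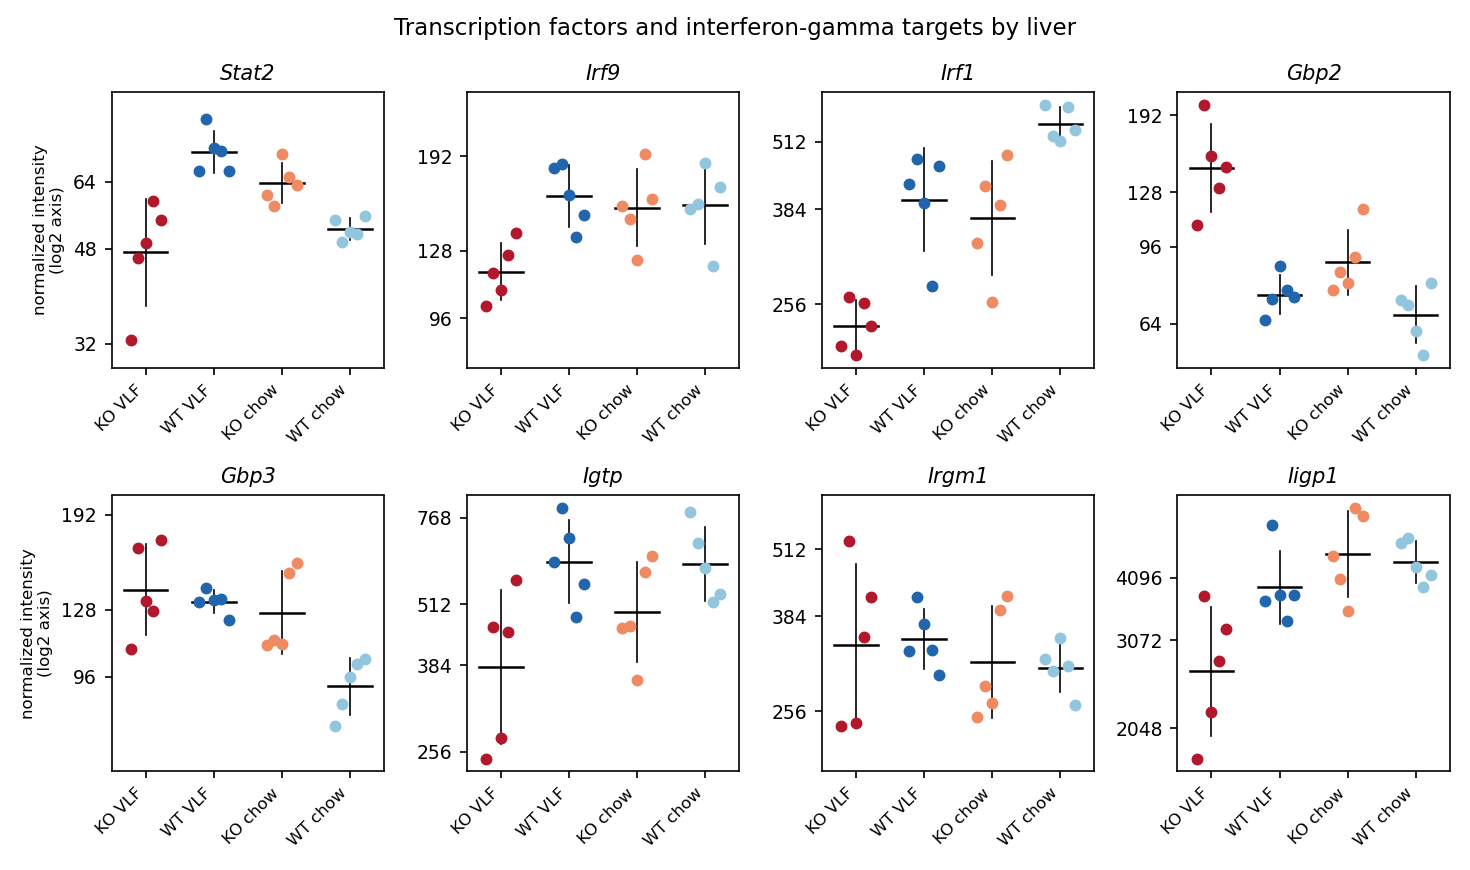
Normalized intensity (log2 axis) of Stat2, Irf9 and the 6 interferon-gamma targets in each of the 20 livers; a point is a liver, the horizontal line the mean and the vertical line ± 1 SD of the log2 values (n = 5). Gbp2 has its highest mean in KO VLF livers, Stat2 and Irf1 lie below the WT VLF livers, and in Igtp, Irgm1 and Iigp1 the KO VLF livers spread over a range at least as wide as that of the WT VLF livers.

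On chow Irf1 was the single member called between the genotypes. Of the 24 type I targets 0 rose and 0 fell in KO chow livers against WT chow livers (limma adjusted p under 0.05), beside 1.38% and 1.91% of all genes, and at an unadjusted p under 0.05 there were 2 rises and 2 falls. The KO chow livers all lay above the WT chow livers for 2 of the 24 (2.77% of all genes) and below them for 0 (4.13% of all genes). Their median log2 change was 0.04, within a range of -0.31 for Eif2ak2 to 0.44 for Usp18. Irf1 was the call among the 6 interferon-gamma targets: it had 333, 424, 259, 391 and 484 units in KO chow livers, against 600, 525, 515, 594 and 537 in WT chow livers. These Irf1 groups did not overlap, but the adjusted p of 0.0498 (log2 -0.58 ± 0.15) was above the threshold in 22 of 31 alternative fits, in which it ran from 0.0269 to 0.186. Gbp3 missed the threshold with 110 to 157 units in KO chow livers and 77.7 to 104 in WT chow livers (log2 0.45 ± 0.13, limma adjusted p = 0.06).

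No member was called for the diet in wild-type livers. Of the 24 type I and 6 interferon-gamma targets 0 rose and 0 fell in WT VLF livers against WT chow livers (limma adjusted p under 0.05), beside 0.883% rises and 0.877% falls among all genes, and at an unadjusted p under 0.05 there were 2 rises and 3 falls. Stat2 (log2 0.48 ± 0.12, limma adjusted p = 0.0574) and Gbp3 (0.52 ± 0.13, adjusted p = 0.0604) came nearest. Other fits called 0 or 1 member of each class up.

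In the knockout most type I targets rose on the diet. Of the 24 type I targets 15 rose and 2 fell in KO VLF livers against KO chow livers (limma adjusted p under 0.05), beside 19.2% rises and 19.8% falls among all genes. The median log2 change was 0.79 for the type I targets and -0.03 for all genes. Rsad2 was 7.59-fold higher in KO VLF livers than in KO chow livers (log2 2.92 ± 0.33, limma adjusted p = 1.33e-06) and Oasl1 6.09-fold higher (2.61 ± 0.25, adjusted p = 1.73e-07). Mx1 was at least 2.59-fold higher, since all KO chow livers were at the floor. Ifit1, not called between the genotypes, was 2.52-fold higher in KO VLF livers than in KO chow livers (log2 1.33 ± 0.41, limma adjusted p = 0.0204), a call lost without KO VLF liver 2 (1.00, adjusted p = 0.0606), KO VLF liver 5 (1.13, adjusted p = 0.062) or KO chow liver 2 (1.23, adjusted p = 0.0524). Ifit3 rose by log2 0.88 ± 0.30 (limma adjusted p = 0.0373) and was not called without KO VLF liver 2, 4 or 5 (0.60 to 0.91) or KO chow liver 1, 2 or 3 (0.75 to 0.92), with adjusted p from 0.0514 to 0.104. Ddx58 rose by 0.50 ± 0.15 (limma adjusted p = 0.0138), but its other probe sets were at -0.08 ± 0.11 and 0.10 ± 0.08, and the call was lost with their mean (0.17, adjusted p = 0.106) or with only the compared groups fitted (adjusted p = 0.0609). Mx2 rose by 0.37 ± 0.11 (adjusted p = 0.0198; 0.32, adjusted p = 0.0526, without KO chow liver 3). Stat2 (-0.43 ± 0.12, limma adjusted p = 0.00915) and Irf9 (-0.40 ± 0.13, adjusted p = 0.0263) fell, and both falls were lost under the control scale, where the median of all genes moved to 0.30. Irf9 was also not called without KO VLF liver 1 (-0.34) or 3 (-0.37) or KO chow liver 4 (-0.31) or 5 (-0.38), with adjusted p from 0.0546 to 0.0836. Of the interferon-gamma targets Gbp2 rose (0.72 ± 0.15, limma adjusted p = 0.000974; 0.41, adjusted p = 0.0515, on its other probe set) and Irf1 (-0.66 ± 0.15, adjusted p = 0.00245) and Iigp1 (-0.78 ± 0.18, adjusted p = 0.00215) fell, the falls being lost under the control scale. The comparisons of the KO VLF livers with WT VLF livers and with KO chow livers share the KO VLF livers.

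Whether the genotype difference itself differed between the diets was tested by the interaction, (KO VLF minus WT VLF) minus (KO chow minus WT chow). It was called up for 8 of the 24 type I targets and down for Stat2 (limma adjusted p under 0.05), beside 13.6% up and 13.6% down among all genes. The largest were Rsad2 at log2 2.71 ± 0.47 (limma adjusted p = 0.000311), Oasl1 at 2.13 ± 0.36 (adjusted p = 0.000218) and Usp18 at 1.70 ± 0.36 (adjusted p = 0.00195). Mx1 (1.40 ± 0.33), Ifit2 (1.36 ± 0.39), Oas1a (1.33 ± 0.19), Irf7 (1.15 ± 0.28) and Mx2 (0.56 ± 0.16) were the other rises. The Mx1 value rests on a probe set at the floor on 13 of the 20 arrays, and with a floor of 32 it was 0.51 (adjusted p = 0.286) and not called. Stat2 was at -0.90 ± 0.16 (limma adjusted p = 0.000522) and at -0.52 (adjusted p = 0.159) under the control scale, and its other probe set was at -0.43 ± 0.19 (adjusted p = 0.141), so the Stat2 call held on neither. The other Iigp1 probe set was called down (-0.77 ± 0.22, adjusted p = 0.0161), while the one read here was not (-0.61 ± 0.25, adjusted p = 0.11). Of the interferon-gamma targets 0 were called, with 1 rise and 1 fall at an unadjusted p under 0.05, and the class median was -0.29 beside 0.55 for the type I targets. The Gbp2 interaction was 0.56 ± 0.21 (limma adjusted p = 0.0753) and that of Irf1 -0.20 ± 0.22 (adjusted p = 0.759).

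The livers of the KO VLF group differed widely from each other in these genes. Liver 2 was the highest of the 5 for 14 of 24 type I targets, liver 5 for 7 and liver 4 for 3, and liver 1 was the lowest for 17. Set against the WT chow mean of each gene, the median type I target stood at 0.11, 1.37, 0.35, 0.50 and 1.01 in KO VLF livers 1 to 5, against 0.14, 0.36, 0.15, -0.11 and 0.08 in WT VLF livers. Thus livers 1 and 3 lay inside the WT VLF range by this median, although their Oas1a, Oasl1, Usp18, Rsad2, Irf7, Ifit2 and Dhx58 levels were above all WT VLF livers. The interferon-gamma targets had medians of -0.83, 0.28, -0.67, -0.14 and 0.17 in the same KO VLF livers, against -0.01, 0.31, 0.22, -0.13 and -0.09 in WT VLF livers. In both classes livers 2 and 5 were the highest of the KO VLF group and livers 1 and 3 the lowest. WT VLF liver 2 was the highest of its group for 18 of 24 type I targets and 5 of 6 interferon-gamma targets. The SD of a type I target's log2 value within a group had a median of 0.442 in KO VLF, 0.190 in WT VLF, 0.221 in KO chow and 0.186 in WT chow livers, beside 0.142, 0.124, 0.135 and 0.132 for all measured genes. The fit shared 1 spread over the 4 groups. For these targets its standard errors can therefore be too small in comparisons with KO VLF livers and too large between the other groups. The labels give no batch, and replicate numbers across groups do not mark shared litters or days in them.

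**Figure D4:**
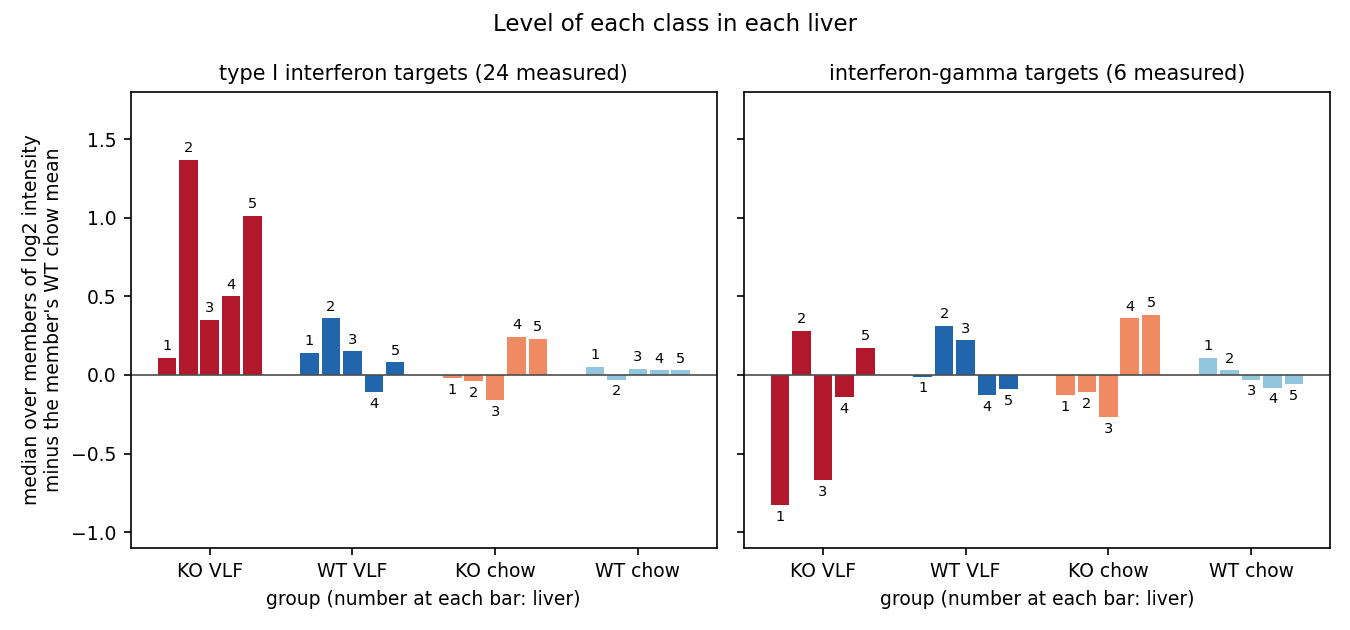
Median over the members of each class of the log2 normalized intensity minus the gene's mean in WT chow livers, for each of the 20 livers, with type I targets (24 measured) on the left and interferon-gamma targets (6 measured) on the right; bars start at 0 and carry the liver's number. KO VLF livers 2 and 5 stand highest for the type I targets, and KO VLF livers 1 and 3 lowest for the interferon-gamma targets.

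Genes that act before the members were followed in lists chosen by function, in KO VLF livers against WT VLF livers. In that comparison 21.6% of all measured genes rose and 25.8% fell. Of the 19 interferon genes listed, 9 were named by no single-gene probe set, and Ifng, Ifna11 and Ifnab were at the floor on all arrays. Of the 7 measured ligands 0 rose (0 also at an unadjusted p under 0.05) and 2, or 28.6%, fell by limma. Ifnb1 averaged 22.2 ± 1.92 units in KO VLF livers and 22.4 ± 1.90 in WT VLF livers (SD, n = 5 each; log2 -0.01 ± 0.08, limma adjusted p = 1). The falls were of Ifna2 (-0.65 ± 0.16, adjusted p = 0.00303) and Ifna1 (-0.25 ± 0.09, adjusted p = 0.0275), and both were lost under the control scale. The changes of Ifna4, Ifna5, Ifna9 and Ifnz, at -0.01, -0.15, -0.19 and 0.11, were not called.

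Receptors, kinases and factors of the pathway gave 6 rises (40.0%) and 2 falls (13.3%) among 15 measured, with a median log2 change of 0.06. Among all genes 21.6% rose and 25.8% fell. On the control scale the list gave 10 rises and 0 falls, with a median of 0.45. Ifngr1, a chain of the interferon-gamma receptor, averaged 293 ± 13.2 units in KO VLF livers and 157 ± 11.2 in WT VLF livers (SD, n = 5 each; log2 0.91 ± 0.05, limma adjusted p = 4.05e-10). Il10rb, the receptor chain shared with interferon-lambda (0.73 ± 0.09), the kinase Jak1 (0.44 ± 0.06) and the macrophage factors Irf8 (0.82 ± 0.12) and Irf5 (0.65 ± 0.12) also rose, and Irf3, which induces interferon-beta, fell (-0.65 ± 0.13, limma adjusted p = 0.000565). Ifnar1 (0.06 ± 0.07), Ifnar2 (-0.19 ± 0.09), Ifngr2 (0.20 ± 0.08) and Ifnlr1 (0.03 ± 0.07) were not called. Among 9 measured brakes 3 rose and 3 fell, or 33.3% each way, beside 21.6% and 25.8% of all genes. Socs3, a feedback inhibitor of cytokine signalling, rose 4.23-fold (log2 2.08 ± 0.32, limma adjusted p = 4.54e-05). The phosphatases Ptpn2 (0.57 ± 0.07) and Ptpn11 (0.32 ± 0.08) rose too, and Trim24 (-0.97 ± 0.19), Cish (-0.67 ± 0.19) and the repressor Irf2 (-0.40 ± 0.09) fell. Socs1, a classical brake on interferon-gamma signalling, was at -0.07 ± 0.07 (limma adjusted p = 0.486).

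Among 15 measured sensors and adaptors 6 rose and 3 fell, with a median log2 change of 0.18. Among all genes 21.6% rose and 25.8% fell in the same comparison. On the control scale 8 sensors and adaptors rose and 0 fell, with a median of 0.43 beside 0.14 for all genes. The kinases Ikbke (log2 1.36 ± 0.18, limma adjusted p = 6.85e-06) and Tbk1 (0.72 ± 0.12) and the endosomal RNA receptor Tlr7 (0.90 ± 0.14) led the rises, with the lipopolysaccharide receptor Tlr4 (0.63 ± 0.16). Mavs, the mitochondrial adaptor of the RNA sensors, fell (-0.81 ± 0.17, limma adjusted p = 0.000933), as did the DNA receptor Tlr9 (-0.32 ± 0.10). The falls named among receptors, factors, brakes, sensors and adaptors were all lost when arrays were centred on the hybridization controls.

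Targets outside the 33 members moved in both directions. Of 35 other measured type I targets 13 rose and 3 fell, with a median log2 change of 0.13, beside rises of 21.6% and falls of 25.8% among all genes. On the control scale 19 rose and 0 fell, with a median of 0.41 beside 0.14 for all genes. Lgals3bp (1.36 ± 0.13, limma adjusted p = 9.02e-08), Ifi27l2a (1.57 ± 0.18), Ifi204 (1.36 ± 0.14), Oas1c (0.72 ± 0.08), Slfn2 (0.81 ± 0.14) and Ifitm1 (0.74 ± 0.13) had the smallest adjusted p. Ifi204 was at the floor in all 5 WT VLF livers and Oas1c in 4 of them, so their 2.56-fold and 1.64-fold changes are lower bounds. Of 22 other measured interferon-gamma targets 3 rose and 7 fell, with a median of -0.07. The rises were of the Fc receptor Fcgr1 (1.92 ± 0.16, limma adjusted p = 1.65e-08), the adhesion molecule Icam1 (1.41 ± 0.14) and the chemokine Cxcl10 (1.74 ± 0.27). The GTPase Gbp6 (-1.30 ± 0.27, limma adjusted p = 0.0008) fell, with Irgm2 (-0.96 ± 0.25) and the immunoproteasome subunit Psmb9 (-0.53 ± 0.11). Under the control scale there were 6 rises and 1 fall, Gbp6 (adjusted p = 0.0235), with a median of 0.29, and under median scaling 5 rises and 5 falls.

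Markers of other liver cells moved in the same comparison, in which 21.6% of all genes rose and 25.8% fell. Of 12 measured markers of macrophages and Kupffer cells 11 rose, and their summed intensity was 19710 to 28720 in KO VLF livers, 6341 to 7421 in WT VLF livers, 7555 to 11150 in KO chow livers and 7567 to 8426 in WT chow livers; Itgam was at the floor in every liver of the last 3 groups. Within the KO VLF group the sums were 28720, 24940, 19710, 24160 and 23830 in livers 1 to 5. The medians of the type I targets in the same livers, against the WT chow means, were 0.11, 1.37, 0.35, 0.50 and 1.01. Of 4 measured neutrophil markers 3 rose and 1 fell, with sums of 765 to 4661 in KO VLF livers and 203 to 254 in WT VLF livers. Of 6 plasmacytoid dendritic cell markers, cells known for making interferon-alpha, Ly6d rose (log2 4.46 ± 0.24, limma adjusted p = 7.73e-11), while Siglech averaged 20.4 ± 1.49 units in KO VLF livers and 20.5 ± 1.12 in WT VLF livers (SD, n = 5 each; limma adjusted p = 1) and Ccr9 at the floor in all of them. Of 11 T and NK cell markers 0 rose (0 also at an unadjusted p under 0.05) and Cd4 fell by limma, with sums of 478 to 575 in KO VLF livers and 495 to 622 in WT VLF livers. Of the 7 hepatocyte markers 0 rose (1 at an unadjusted p under 0.05) and 2 fell by limma, of the 7 markers of sinusoidal endothelium 1 rose and 3 fell, and of the 4 B cell markers and 2 erythroid markers 0 rose (0 also at an unadjusted p under 0.05) while 1 and 2 fell. The part of these cells in the members' changes was not tested.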

How the data were processed

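Liver RNA of 20 mice was measured on Affymetrix Mouse430v2.0 arrays, 1 per mouse. The authors deposited 1 intensity per probe set and array, on a linear scale from 4.84 to 25117.34. The submitters' processing notes name MAS5 and RMA, without saying which of them made these values.

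Each array was scaled to a common median (deposited medians were 32.2 to 36.6), values under 16 were set to 16, and log2 values were quantile normalized. Of 45037 probe sets left without 64 controls, 9114 lay at the floor on all arrays and entered the adjustment as not changed. limma 3.58.1 (R 4.3.3) fitted the 4 group means with eBayes, with 16 residual degrees of freedom. Calls are Benjamini-Hochberg adjusted p under 0.05 over all probe sets. P-values measure the spread between livers, taken as equal in the 4 groups. That was not so for the type I targets, whose median SD was 0.442 in KO VLF livers and 0.186 to 0.221 in the other groups. Besides the main fit, 11 other settings and leaving out each of the 20 arrays were tried.

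A gene was read from its brightest probe set naming it alone: 34945 probe sets name 1 gene, 932 several and 9160 none. All members are named. Values per liver are given for the 2 of each role with the smallest adjusted p, for calls against their role's direction and for calls on chow or in wild type; of each further list at most 6 called genes are named, and all measured ligands and receptors. Members and lists were chosen with earlier results of these data known. Promoters are from RefSeq (GRCm38.p6).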

Additional observations from a re-analysis of the deposited data

Results flagged for a closer look

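Of 117 pairs of a member and a group of 5 livers, 3 held a liver whose gap to its nearest neighbour, as a share of the group's range, was above Dixon's 95% critical value for 5 samples; chance gives about 1 in 20. Oas2 in KO chow liver 4 was at 85.22 units, below the other KO chow livers at 94.22 to 97.13. Adar in KO chow liver 3 was at 94.64 units, below the other KO chow livers at 133.2 to 142.1. Iigp1 in WT VLF liver 2 was at 5227 units, above the other WT VLF livers at 3359 to 3785, and the fall of Iigp1 in KO VLF livers was not called without that liver (log2 -0.45, limma adjusted p = 0.0615).

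The genotype difference on the VLF diet differed from that on chow by the interaction test in 9 members. The values were log2 2.71 for Rsad2, 2.13 for Oasl1, 1.70 for Usp18, 1.40 for Mx1, 1.36 for Ifit2, 1.33 for Oas1a, 1.15 for Irf7, 0.56 for Mx2 and -0.90 for Stat2, with limma adjusted p from 4.09e-05 to 0.0188. The Mx1 value was 0.51 (adjusted p = 0.286) with a floor of 32, and the Stat2 value -0.52 (adjusted p = 0.159) with arrays centred on the hybridization controls and -0.43 (adjusted p = 0.141) on its other probe set. All livers of the KO VLF group lay above those of each other group in Rsad2, Oasl1, Usp18, Mx1, Ifit2, Oas1a and Irf7. These members were picked by the interaction on the same values, so their separation is no further support. Against WT VLF livers alone, 16.4% of all genes were separated in this direction.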

How the results depend on the processing

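Between KO VLF and WT VLF livers, 11 of 19 called members were called in all 31 other fits, 8 were lost in at least 1 (Oas3, Irf1, Irf9, Stat2, Mx1, Igtp, Iigp1 and Ifi35) and 0 changed direction. Type I rises numbered 12 to 14 with an array left out. Centring on the hybridization controls changed the split of all genes to 5092 up and 957 down, against 3491 and 4177. It left 0 falls of type I targets (1 under median scaling) and 0 of interferon-gamma targets (3 under median scaling). With an array left out, interferon-gamma falls numbered 1 to 3. Of the 11 members not called, 3 changed sign in some fit: Oas2 was -0.03 with array weights and -0.08 to 0.07 with an array left out, Irgm1 was 0.36 under control centring, 0.17 under median scaling and -0.19 to 0.09 with an array left out, and Eif2ak2 was 0.09 under control centring and 0.20 as the mean of its probe sets. On chow, type I rises numbered 1 under median scaling and 0 to 1 with an array left out; interferon-gamma rises numbered 2 under median scaling, 1 with array weights or the mean of probe sets and 0 to 1 with an array left out; the interferon-gamma fall, Irf1, went to 0 with array weights, control centring, a floor of 32, median scaling, only the compared groups or the replicate block, and ranged over 0 to 1 with an array left out. Between KO VLF and KO chow livers, type I falls numbered 0 under control centring, 1 with only the compared groups or the replicate block and 1 to 2 with an array left out, and interferon-gamma targets had 2 rises and 0 falls under control centring and 0 rises without probe sets ending in _x or _s. Between WT VLF and WT chow livers, both classes had 1 rise with array weights, limma's trend, only the compared groups or the brighter probe sets, as had the interferon-gamma targets with the mean of probe sets or the replicate block, and 0 to 1 with an array left out. In the interaction, type I falls numbered 0 under control centring and 1 to 2 with an array left out, and interferon-gamma targets had 1 fall with array weights or the mean of probe sets, 1 rise under control centring or median scaling, and 0 to 1 of each with an array left out. The cause was not tested, except that fitting fewer livers leaves fewer degrees of freedom. Replicate numbers do not pair the livers: deviations of same-numbered livers correlated at -0.251 to 0.268, and the replicate block moved no other count by over 1.5 times. Signal near the floor limits Mx1 and the interferon genes.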
